A study of Homo sapiens with 12 samples.

Results

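Mitotic spindle and checkpoint genes, 54 genes whose products build the spindle, tie chromosomes to it, delay anaphase until every chromosome is attached, or drive entry into and exit from mitosis, were followed through 12 RNA sequencing libraries of 3 human lymphoma cell lines. The 54 were taken by symbol out of a table of 63129 genes, and where a symbol had several rows the row on a primary chromosome with the highest mean level was used. All 54 were found. Their levels exceeded 1 FPKM (fragments scaled to transcript length and to library size) in each library, the lowest being 1.60 FPKM for ESPL1 in GSK343 replicate 1, so each passed the filter of at least 1 FPKM in at least 2 libraries through every group. The lines, KARPAS-422, Pfeiffer and RL, were established from diffuse large B cell lymphoma of the germinal centre type. All of them carry a mutation in the SET domain of EZH2 that activates this histone H3 lysine methyltransferase, so no line without such a mutation was included. In KARPAS-422, 3 libraries came from cells with 1.5 µM of the EZH2 inhibitor CPI-169 and 3 from cells with DMSO. In Pfeiffer, 2 came from cells with 1.5 µM of another EZH2 inhibitor, GSK343, and 2 from cells with DMSO. The 2 RL libraries had vehicle only. Compound or 0.1% DMSO was present for 4 days. The design text calls KARPAS-422 and Pfeiffer responsive and RL non-responsive, and it asks which transcripts change with inhibition and what RL expresses at baseline. Each compound was used in 1 line, so compound and line cannot be told apart, and RL was seeded at 200000 cells per ml against 500000 for KARPAS-422 and Pfeiffer.

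In a dividing cell most of these mRNAs are made in G2 phase and mitosis and are held down in G1 and in resting cells. Cyclin B with CDK1 starts mitosis, Aurora and polo-like kinases shape the spindle, kinesins slide and depolymerize microtubules, and the NDC80 complex of the kinetochore grips microtubule ends. Unattached kinetochores hold CDC20 in an inhibitory complex with MAD2 and BUBR1, and its release lets the anaphase-promoting complex degrade securin and cyclin B. Many promoters of the group carry a CHR element (cell cycle genes homology region, TTTGAA or TTCGAA) near the transcription start and CCAAT boxes bound by NF-Y, through which the MuvB core acts, with RB family members in resting cells and with B-MYB and FOXM1 in proliferating ones. Germinal centre B cells are among the fastest dividing cells of the body.

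The promoters of the 4 subunits of the NDC80 complex are printed because these subunits moved unlike each other with CPI-169. Those of CDCA8, CDC20 and PLK1 are examples from the 47 members that fell with both compounds, and each holds TTTGAA. KIF2C and CENPE, not printed, fell further with CPI-169 than CDC20 or PLK1 (log2 fold changes -1.25 and -1.27 beside -0.88 and -0.71). Their promoter windows hold neither TTTGAA nor TTCGAA, and other forms of the CHR element were not searched for. CDC25B, also not printed, rose with CPI-169 and has TTCGAA in a promoter window. The windows run from 250 bases before to 50 bases after the annotated start in RefSeq (GRCh38.p14, a newer build than the hg19 of the measured table), 5′ to 3′ on the gene's strand. Capitals mark TTTGAA or else TTCGAA (the CHR element), and CCAAT, on either strand, so that TTCAAA or the letters ATTGG are marked as well.
NDC80: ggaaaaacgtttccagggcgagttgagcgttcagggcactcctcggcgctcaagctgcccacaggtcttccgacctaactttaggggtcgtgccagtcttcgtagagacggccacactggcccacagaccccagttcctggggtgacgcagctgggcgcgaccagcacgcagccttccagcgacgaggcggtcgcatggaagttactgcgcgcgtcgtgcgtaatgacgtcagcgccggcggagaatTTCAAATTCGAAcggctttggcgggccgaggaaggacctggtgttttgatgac
NUF2: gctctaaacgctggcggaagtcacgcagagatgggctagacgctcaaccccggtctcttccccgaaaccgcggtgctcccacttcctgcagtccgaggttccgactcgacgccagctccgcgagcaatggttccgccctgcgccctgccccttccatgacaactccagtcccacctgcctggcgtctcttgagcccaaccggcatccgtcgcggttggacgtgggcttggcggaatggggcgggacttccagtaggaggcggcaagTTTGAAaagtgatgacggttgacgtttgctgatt
SPC24: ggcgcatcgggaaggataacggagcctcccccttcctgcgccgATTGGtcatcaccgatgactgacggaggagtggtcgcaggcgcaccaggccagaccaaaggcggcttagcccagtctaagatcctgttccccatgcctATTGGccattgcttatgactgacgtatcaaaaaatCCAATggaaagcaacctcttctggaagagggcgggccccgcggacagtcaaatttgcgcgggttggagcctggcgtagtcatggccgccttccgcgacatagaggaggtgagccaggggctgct
SPC25: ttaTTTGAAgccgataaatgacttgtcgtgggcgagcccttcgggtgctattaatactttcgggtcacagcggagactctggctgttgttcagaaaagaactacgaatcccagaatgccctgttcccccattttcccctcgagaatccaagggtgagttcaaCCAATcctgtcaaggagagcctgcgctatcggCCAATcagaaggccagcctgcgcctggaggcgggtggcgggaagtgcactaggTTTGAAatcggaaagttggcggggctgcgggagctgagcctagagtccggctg
CDCA8: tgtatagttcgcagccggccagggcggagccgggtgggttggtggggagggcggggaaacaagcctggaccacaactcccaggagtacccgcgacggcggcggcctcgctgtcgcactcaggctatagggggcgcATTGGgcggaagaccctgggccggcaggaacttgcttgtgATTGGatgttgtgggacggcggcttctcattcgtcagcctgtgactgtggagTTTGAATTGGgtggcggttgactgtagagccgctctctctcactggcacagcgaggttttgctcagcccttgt
CDC20: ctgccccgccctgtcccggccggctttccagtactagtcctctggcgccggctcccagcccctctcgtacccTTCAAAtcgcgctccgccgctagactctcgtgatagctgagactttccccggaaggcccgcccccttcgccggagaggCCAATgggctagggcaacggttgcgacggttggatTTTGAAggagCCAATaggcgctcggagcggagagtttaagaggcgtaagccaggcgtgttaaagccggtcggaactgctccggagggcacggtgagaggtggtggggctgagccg
PLK1: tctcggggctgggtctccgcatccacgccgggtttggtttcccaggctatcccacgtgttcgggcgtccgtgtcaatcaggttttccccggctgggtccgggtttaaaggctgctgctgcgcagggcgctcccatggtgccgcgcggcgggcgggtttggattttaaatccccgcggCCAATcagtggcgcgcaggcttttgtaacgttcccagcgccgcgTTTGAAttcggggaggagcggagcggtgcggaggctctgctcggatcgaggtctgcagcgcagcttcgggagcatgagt
In order, they lie at chr18:2571307-2571606, plus strand (NDC80), chr1:163321704-163322003, plus strand (NUF2), chr19:11155733-11156032, minus strand (SPC24), chr2:168890381-168890680, minus strand (SPC25), chr1:37692266-37692565, plus strand (CDCA8), chr1:43358731-43359030, plus strand (CDC20), and chr16:23678639-23678938, plus strand (PLK1). Counting the start as base 1, TTTGAA begins at base -23 in CDCA8, where its last A is the first base of an ATTGG, at -65 in CDC20, at -29 in PLK1, at -3 in SPC25 and at 17 in NUF2. A further TTTGAA begins at -247 in SPC25, and a TTCAAA at -178 in CDC20. NDC80 carries TTCAAA at -3 directly followed by TTCGAA at 4. The SPC24 window has 3 CCAAT boxes, at -207, -109 and -74, and no match to TTTGAA or TTCGAA in these letters.

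Of the 54 members, 46 had at least 1 RefSeq window, 60 windows in all. TTTGAA or TTCGAA was found in 39 of the 60 (65%), against 16.4% of all 35116 windows of the same length. Within 100 bases before to 50 bases after the start the shares were 58.3% and 7.37%. CCAAT was found in 68.3% of member windows and 34.6% of all windows, and both motifs together in 48.3% and 6.38%. The 10 members whose windows hold neither TTTGAA nor TTCGAA were AURKB, CCNA2, CCNB1, CENPE, KIF20A, KIF2C, NCAPH, NEK2, PTTG1 and SPC24. Their median log2 fold changes were -0.75 with CPI-169 and -2.11 with GSK343, beside -0.73 and -1.76 for the 36 members with a match. A match is only a match of letters, and binding was not measured in these libraries.

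The libraries had FPKM sums of 371965 to 630387, and replicates correlated across tested genes at r of 0.993 to 0.9972, apart from the GSK343 pair (r = 0.97). All 9 B cell markers reached 1 FPKM in every group, and none of 8 myeloid markers did in any. T and NK cell markers summed to 55.1 to 61.6 FPKM with CPI-169 and 36.9 to 38.4 with DMSO in KARPAS-422, with 4 and 3 of 10 reaching 1 FPKM, and to 299 to 398 with GSK343 and 412 to 414 with DMSO in Pfeiffer, with 2 and 1 of 10. KLRD1 was listed at 0 throughout. Epithelial and stromal markers summed to 57.8 to 79.5 FPKM with GSK343 and 140 to 141 with DMSO in Pfeiffer (4 of 8 at 1 FPKM in both), and stayed under 1.75 in the other groups. The part of these markers in the results below was not tested. Lysis was in Trizol or RLT buffer, and which library had which is not given in the sources used here. In bulk RNA, fewer cells in mitosis and less mRNA per mitotic cell cannot be told apart.

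With CPI-169 in KARPAS-422, 47 of the 54 members fell, 2 rose and 5 did not pass (limma on log2(FPKM + 1), Benjamini-Hochberg adjustment over 18731 genes, threshold 0.05), where 27.3% of all tested genes were lower and 26.9% higher. The members' median log2 fold change was -0.74, beside 0.01 over all genes. The median member stood at 58% of its DMSO mean, in a range of 38.6% (CDCA8) to 150% (SPC24). All 3 treated libraries lay below all 3 DMSO libraries in 48 members and above them in 2, and they overlapped in 4, against 31.8% and 33.2% of all genes without overlap. Together the 54 genes took 0.281% to 0.293% of the FPKM sum with CPI-169, and 0.467% to 0.471% with DMSO.

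With GSK343 in Pfeiffer, all 54 members fell, where 29.5% of all tested genes passed, 17.5% lower and 12% higher, and the member median was -1.79 beside -0.03 over all genes. The median member stood at 26.8% of its DMSO mean, in a range of 10.9% (PBK) to 64% (BUB3). Both treated libraries lay below both DMSO libraries in all 54 members, against 34% of all genes. Their share of the FPKM sum was 0.141% and 0.103% with GSK343, and 0.388% and 0.379% with DMSO. With Pfeiffer fitted alone, 0 of the 54 members and 0 of all genes passed (limma adjusted p of 0.0516 to 0.127 for members), while all 54 members and 4634 genes had an unadjusted p under 0.05. The calls therefore rest on a spread shared with the other lines.

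Replicate 2 of GSK343 was below replicate 1 in 52 of the 54 members, against 41.6% of all genes. Its member median against DMSO was -2.08, and that of replicate 1 was -1.55. Across all genes the median difference between the 2 libraries was 0.07, and across the members it was -0.44, so the pair differed in how far the members fell. In KARPAS-422 the medians of the CPI-169 libraries were -0.69, -0.76 and -0.74. Among the DMSO libraries of KARPAS-422, 44 members were higher in replicate 2 than in replicate 1, and 41 were higher in replicate 3 than in replicate 1. The median differences of these pairs were 0.12 and 0.12 across the members and 0.04 and 0.05 across all genes. The share of all genes that were higher was not counted for these pairs. The member median was thus below 0 in each treated library of both lines, and furthest below in GSK343 replicate 2.

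**Figure D1:**
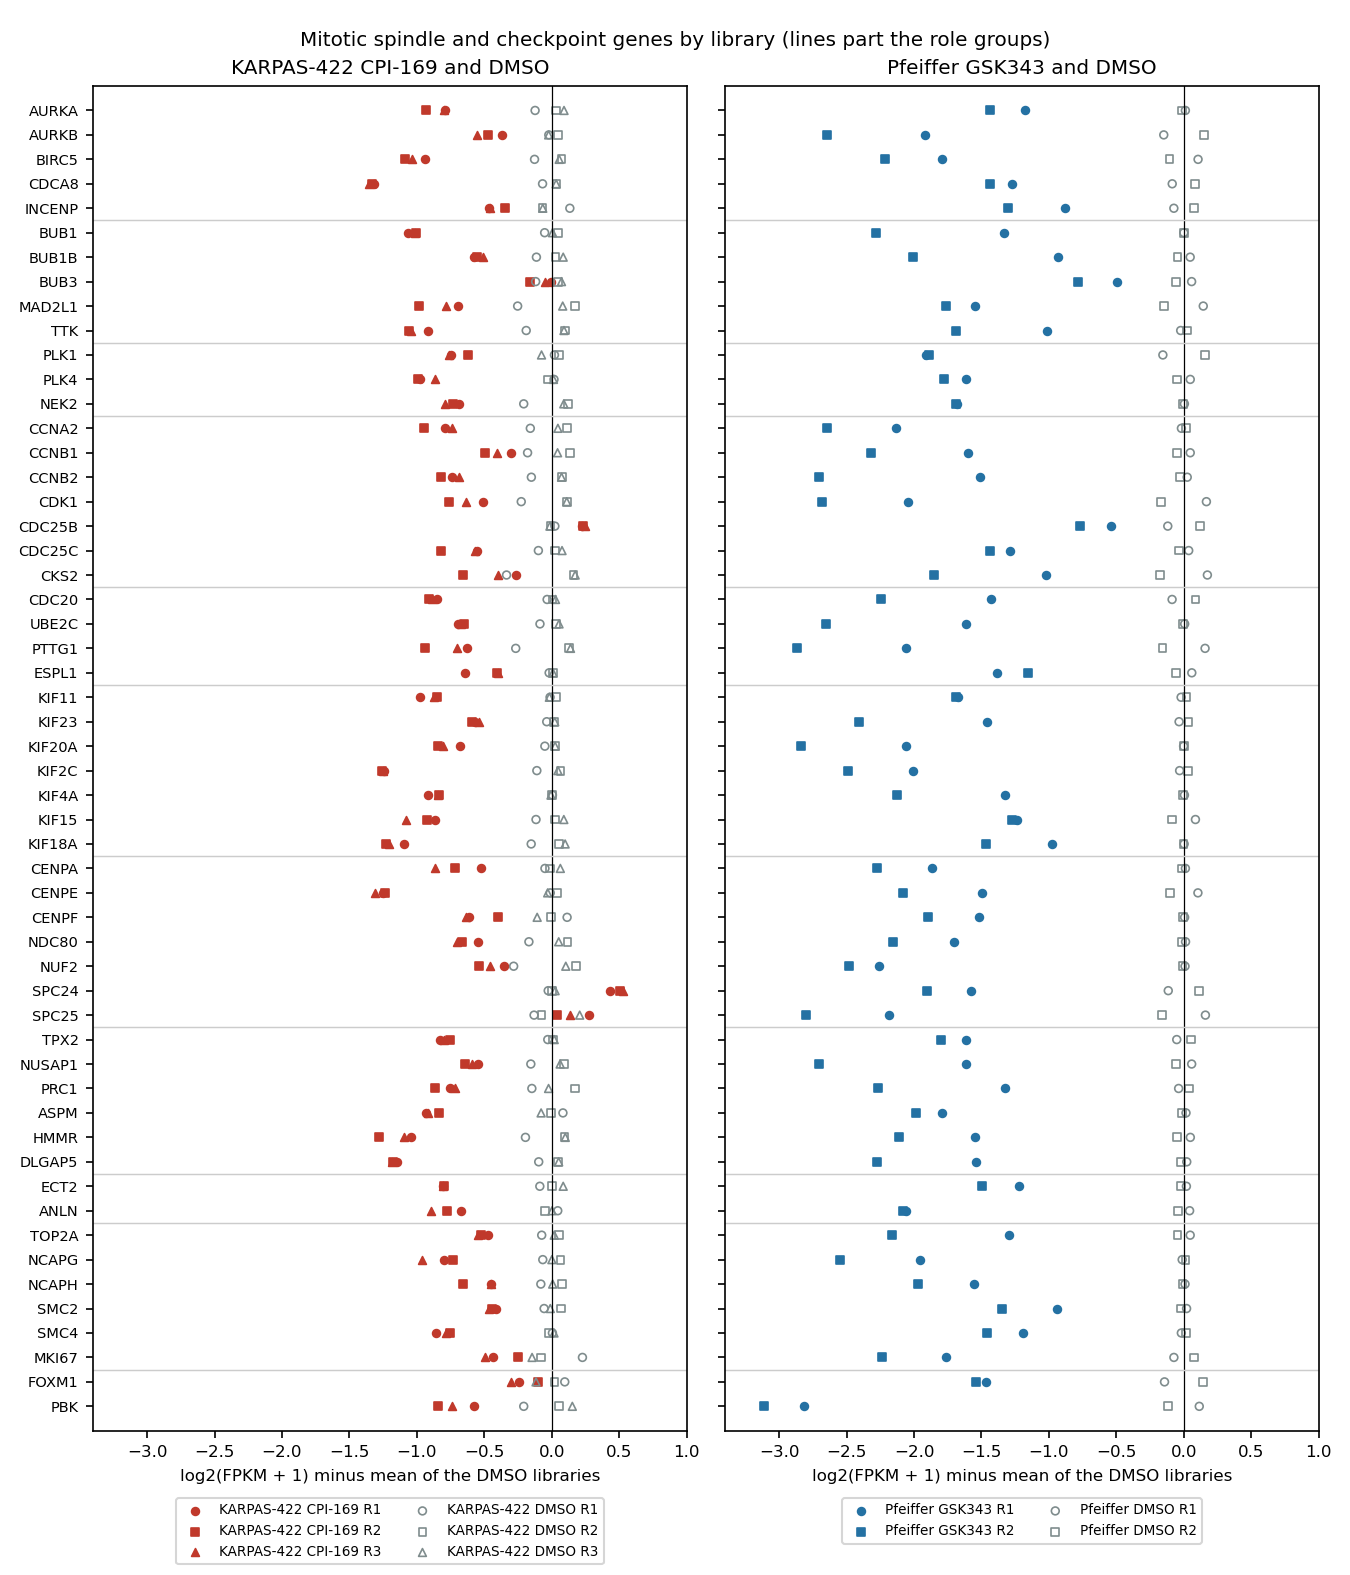
Each point is 1 library and 1 member, as log2(FPKM + 1) minus the mean of the line's DMSO libraries; filled points are treated and open points DMSO libraries, and the role groups are parted by lines. Most CPI-169 points lie between 0 and -1.4 with SPC24, CDC25B and SPC25 to the right of 0, and all GSK343 points lie left of their DMSO points.

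The chromosomal passenger complex corrects wrong attachments at the centromere, with AURKB as its kinase, INCENP as its scaffold and survivin (BIRC5) and borealin (CDCA8) as targeting subunits. All 5 genes of this group, AURKA included, fell with both compounds. CDCA8 (chr1:38158089-38175391 on hg19, as are all loci below) had 22.8, 22.6 and 22.2 FPKM with CPI-169 and 55.5, 59.7 and 59.6 with DMSO in KARPAS-422 (log2 fold change -1.33, SE 0.07, limma adjusted p = 1.66e-07). In Pfeiffer it had 8.73 and 7.73 FPKM with GSK343 and 21.2 and 24.03 with DMSO (log2 fold change -1.36, SE 0.09, limma adjusted p = 3.79e-06). The groups did not overlap in either line, and the share of the DMSO mean that was left was close, at 38.6% and 36.4%. INCENP (chr11:61891444-61920635) had the smallest fall of the group, with 17.2, 18.7 and 17.3 FPKM with CPI-169 and 26.5, 22.9 and 22.9 with DMSO (log2 fold change -0.42, SE 0.11, limma adjusted p = 0.00689). It had 14.9 and 10.8 FPKM with GSK343 and 26.8 and 29.7 with DMSO (log2 fold change -1.09, SE 0.13, limma adjusted p = 0.0002). Survivin mRNA per INCENP mRNA, a ratio of FPKM values, was 1.57, 1.30 and 1.46 with CPI-169 and 1.82, 2.42 and 2.39 with DMSO, and it was 0.626 and 0.623 with GSK343 and 1.41 and 1.09 with DMSO. So the targeting subunit was lower relative to the scaffold in each treated library than in any DMSO library of its line. AC087645.1 covers 89.8% of the BIRC5 locus and averaged 3.31 FPKM with GSK343 and 13.5 with DMSO in Pfeiffer (log2 fold change -1.76, limma adjusted p = 0.00146), and was close to 0 in both KARPAS-422 groups; its part in the level of BIRC5 was not tested. AURKB kept 71.7% of its DMSO mean with CPI-169 and 17.2% with GSK343, and AURKA, the spindle pole kinase, 54.9% and 38.9%.

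Among checkpoint genes, the kinases BUB1 and TTK (MPS1), the CDC20 inhibitor gene MAD2L1 and BUB1B (BUBR1) fell with CPI-169, and BUB3, the adaptor that carries BUB1 and BUBR1 to kinetochores, did not pass. TTK (chr6:80713603-80752244) had 13.5, 12.2 and 12.3 FPKM with CPI-169 and 23.1, 28.4 and 28.2 with DMSO (log2 fold change -1.01, SE 0.15, limma adjusted p = 0.000183). BUB3 (chr10:124913792-124924886) had 80.4, 72.1 and 77.95 FPKM with CPI-169 and 74.3, 83.5 and 84.97 with DMSO, groups that overlap (log2 fold change -0.07, SE 0.09, limma adjusted p = 0.552). BUB1 levels per BUB3 level were 0.230, 0.268 and 0.246 with CPI-169 and 0.517, 0.493 and 0.471 with DMSO. With GSK343 all 5 fell. MAD2L1 (chr4:120980576-120988229) had 21.04 and 17.98 FPKM with GSK343 and 70.1 and 57.2 with DMSO (log2 fold change -1.65, SE 0.16, limma adjusted p = 4.17e-05), and 25.4, 20.6 and 23.9 with CPI-169 against 34.8, 47.1 and 44.2 with DMSO. BUB3 had 62.96 and 51.5 FPKM with GSK343 and 92.99 and 85.7 with DMSO (log2 fold change -0.64, SE 0.11, limma adjusted p = 0.00193), the smallest fall of all 54 members and still without overlap. BUB1B (chr15:40453223-40513337) had 34.1 and 15.6 FPKM with GSK343 and 68.2 and 63.8 with DMSO (log2 fold change -1.47, SE 0.25, limma adjusted p = 0.00161), so the treated libraries stood far apart. With CPI-169 BUB1B had 12.3, 12.5 and 12.96 FPKM, against 17.4, 19.3 and 20.1 with DMSO (log2 fold change -0.55, SE 0.20, limma adjusted p = 0.0418), a call that was lost in 12 of the alternative settings.

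The polo-like and NEK kinase genes fell with both compounds. PLK1 (chr16:23688976-23701688), which acts from mitotic entry to cytokinesis, had 16.03, 17.6 and 15.8 FPKM with CPI-169 and 27.96, 28.7 and 26.1 with DMSO (log2 fold change -0.71, SE 0.09, limma adjusted p = 4.5e-05). Its levels were 21.5 and 21.8 FPKM with GSK343 and 74.8 and 92.97 with DMSO (log2 fold change -1.90, SE 0.10, limma adjusted p = 1.78e-06). PLK4 (chr4:128802015-128820350), the kinase of centriole duplication, had 23.6, 23.4 and 25.7 FPKM with CPI-169 and 48.1, 46.6 and 47.99 with DMSO (log2 fold change -0.95, SE 0.07, limma adjusted p = 1.31e-06). In Pfeiffer the PLK4 values were 6.60 and 5.78 with GSK343 and 23.01 and 21.5 with DMSO (log2 fold change -1.69, SE 0.08, limma adjusted p = 9.15e-07). Groups were well apart for both kinases in both lines. NEK2, which helps centrosomes part, kept 57.4% of its DMSO mean with CPI-169 and 26.7% with GSK343.

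Of the cyclin and CDK1 group, 4 of 7 fell and CDC25B rose with CPI-169, and all 7 fell with GSK343. CCNA2 (chr4:122737598-122745087), encoding cyclin A2, had 6.61 and 4.34 FPKM with GSK343 and 31.9 and 32.7 with DMSO (log2 fold change -2.39, SE 0.15, limma adjusted p = 3.79e-06). With CPI-169 it had 16.6, 14.8 and 17.2, against 26.2, 31.9 and 30.4 with DMSO (log2 fold change -0.83, SE 0.12, limma adjusted p = 0.000218). EXOSC9, which overlaps 7.73% of the CCNA2 locus, averaged 20.4 FPKM with GSK343 and 43.1 with DMSO, and its part was not tested. CCNB1 (chr5:68462836-68474072), encoding cyclin B1, had 70.3 and 42.2 FPKM with GSK343 and 222 and 208 with DMSO, the largest loss in FPKM among the members (log2 fold change -1.96, SE 0.19, limma adjusted p = 5.14e-05). In KARPAS-422 it had 37.97, 33.2 and 35.3 FPKM with CPI-169 and 41.5, 51.9 and 48.6 with DMSO, without overlap, and just missed the threshold (log2 fold change -0.40, SE 0.16, limma adjusted p = 0.0503). The call was gained in several alternatives, among them the replicate block (limma adjusted p = 0.041), the line fitted alone (0.0154) and leaving out GSK343 replicate 1 (0.00234) or 2 (0.00237), and over all alternatives the adjusted p was 0.00234 to 0.154. CDC25C (chr5:137620953-137674044), a phosphatase that activates CDK1, had 5.44, 4.35 and 5.39 FPKM with CPI-169 and 7.84, 8.62 and 8.98 with DMSO (log2 fold change -0.65, SE 0.09, limma adjusted p = 0.000147), and 4.38 and 3.85 with GSK343 against 12.5 and 11.8 with DMSO. Its relative CDC25B (chr20:3767577-3786762) had 11.1, 11.1 and 11.3 FPKM with CPI-169 and 9.502, 9.27 and 9.24 with DMSO (log2 fold change 0.24, SE 0.08, limma adjusted p = 0.0304). All 3 treated libraries were above all 3 DMSO libraries, yet the difference was small, and the call was lost under median scaling (limma adjusted p = 0.139), with the replicate block (0.0721) and in 5 of the 6 fits that left out 1 KARPAS-422 library. In Pfeiffer CDC25B had 15.03 and 12.7 FPKM with GSK343 and 20.4 and 24.3 with DMSO (log2 fold change -0.66, SE 0.10, limma adjusted p = 0.000842). CKS2, a small CDK-binding subunit and the most abundant member in KARPAS-422 and RL, averaged 92.1 ± 12.8 FPKM with CPI-169 and 126 ± 23.9 with DMSO (SD, n = 3 each) and did not pass there (limma adjusted p = 0.109).

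The genes of anaphase entry all fell with both compounds. CDC20 (chr1:43824625-43828874), the activator of the anaphase-promoting complex, had 21.03, 20.1 and 20.5 FPKM with CPI-169 and 37.8, 38.9 and 39.5 with DMSO (log2 fold change -0.88, SE 0.16, limma adjusted p = 0.000767). PTTG1 (chr5:159848828-159855748), encoding securin, had 31.5 and 17.6 FPKM with GSK343 and 150.3 and 121 with DMSO (log2 fold change -2.46, SE 0.24, limma adjusted p = 4.44e-05). With CPI-169 it had 33.7, 26.96 and 31.9 FPKM, against 43.5, 57.5 and 57.9 with DMSO (log2 fold change -0.76, SE 0.19, limma adjusted p = 0.00667). None of these groups overlapped, and securin stood much lower in GSK343 replicate 2 than in replicate 1. ESPL1 (chr12:53662082-53687427), encoding the protease separase that securin blocks, had 6.84, 8.25 and 8.33 FPKM with CPI-169 and 11.1, 11.4 and 11.4 with DMSO (log2 fold change -0.48, SE 0.09, limma adjusted p = 0.00104). It had 1.60 and 2.05 FPKM with GSK343 and 6.06 and 5.5 with DMSO (log2 fold change -1.27, SE 0.11, limma adjusted p = 2.55e-05). Securin per separase, in FPKM, was 19.8 and 8.58 with GSK343 and 24.8 and 21.9 with DMSO in Pfeiffer, while in KARPAS-422 the ratios overlapped. UBE2C, the ubiquitin-conjugating enzyme of the complex, kept 61.9% of its DMSO mean with CPI-169 and 22.3% with GSK343.

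All 7 kinesin genes fell with both compounds. KIF2C (chr1:45205489-45233439), encoding the microtubule depolymerase MCAK, had 16.4, 16.2 and 16.3 FPKM with CPI-169 and 37.1, 42.03 and 41.5 with DMSO (log2 fold change -1.25, SE 0.11, limma adjusted p = 4.48e-06). In Pfeiffer it had 7.82 and 5.31 with GSK343 and 33.8 and 35.3 with DMSO (log2 fold change -2.25, SE 0.13, limma adjusted p = 2.64e-06). KIF11 (chr10:94353042-94415150), the motor that pushes spindle poles apart, had 7.92, 8.74 and 8.59 FPKM with CPI-169 and 16.4, 16.9 and 16.3 with DMSO (log2 fold change -0.90, SE 0.06, limma adjusted p = 9.56e-07). Replicates of KIF11 lay close together in each group, and its adjusted p was the smallest of the kinesins in both lines. Its values were 5.19 and 5.14 FPKM with GSK343 and 18.5 and 19.04 with DMSO (log2 fold change -1.68, SE 0.08, limma adjusted p = 6.96e-07). KIF18A (chr11:28042166-28129855), which dampens chromosome oscillation, had 7.34, 6.59 and 6.73 FPKM with CPI-169 and 15.01, 17.5 and 18.1 with DMSO (log2 fold change -1.18, SE 0.12, limma adjusted p = 1.38e-05), and 4.98 and 3.26 with GSK343 against 10.8 and 10.8 with DMSO (log2 fold change -1.22, SE 0.15, limma adjusted p = 0.000182). KIF15 (chr3:44803208-44914868), a second motor of spindle bipolarity, had 8.74, 8.31 and 7.37 FPKM with CPI-169 and 15.3, 17.04 and 17.8 with DMSO (log2 fold change -0.96, SE 0.09, limma adjusted p = 5.59e-06), and 5.76 and 5.60 with GSK343 against 15.96 and 14.1 with DMSO (log2 fold change -1.26, SE 0.10, limma adjusted p = 1.75e-05). Both were below DMSO in every treated library of both lines. Of the motors of the central spindle, KIF23 kept 65.5% of its DMSO mean with CPI-169 and 24.2% with GSK343, KIF20A 55% and 15.8%, and KIF4A 50.8% and 25.4%.

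At the centromere and kinetochore, 5 of 7 genes fell and SPC24 rose with CPI-169, and all 7 fell with GSK343. CENPE (chr4:104026962-104119566), a kinesin that moves chromosomes to the spindle equator, had 9.99, 10.1 and 9.53 FPKM with CPI-169 and 24.9, 25.9 and 24.6 with DMSO (log2 fold change -1.27, SE 0.13, limma adjusted p = 1.51e-05). It had 5.73 and 3.48 FPKM with GSK343 and 19.4 and 16.6 with DMSO (log2 fold change -1.79, SE 0.16, limma adjusted p = 2.8e-05). CENPA, the histone H3 variant of centromeres, kept 58.6% of its DMSO mean with CPI-169 and 20.8% with GSK343, and CENPF 67% and 27.9%.

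The 4 subunits of the NDC80 complex, which holds 1 copy of each, did not move together in KARPAS-422. NDC80 (chr18:2571509-2616634) had 24.01, 22.1 and 21.4 FPKM with CPI-169 and 31.5, 38.7 and 36.9 with DMSO (log2 fold change -0.64, SE 0.12, limma adjusted p = 0.000749), and its partner NUF2 (chr1:163236365-163325554) had 44.2, 38.7 and 41.04 with CPI-169 and 46.5, 64.3 and 61.1 with DMSO (log2 fold change -0.45, SE 0.12, limma adjusted p = 0.00655). SPC24 (chr19:11242195-11266484) had 6.26, 6.62 and 6.73 FPKM with CPI-169 and 4.27, 4.38 and 4.46 with DMSO (log2 fold change 0.49, SE 0.09, limma adjusted p = 0.00115). SPC25 (chr2:169690641-169769881), which pairs with SPC24 and anchors the complex at the centromere, had 10.9, 9.08 and 9.80 FPKM with CPI-169 and 7.97, 8.32 and 10.3 with DMSO, groups that overlap (log2 fold change 0.15, SE 0.16, limma adjusted p = 0.465). So both microtubule-binding subunits fell without overlap, while SPC24 was higher in all 3 treated libraries. SPC24 levels per NDC80 level were 0.261, 0.300 and 0.314 with CPI-169 and 0.136, 0.113 and 0.121 with DMSO, and SPC25 per NUF2 was 0.247, 0.235 and 0.239 with CPI-169 and 0.171, 0.129 and 0.169 with DMSO.

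In Pfeiffer all 4 subunits fell. NDC80 had 5.70 and 3.91 FPKM with GSK343 and 21.1 and 20.7 with DMSO (log2 fold change -1.93, SE 0.14, limma adjusted p = 8.39e-06), and NUF2 had 5.16 and 4.30 with GSK343 and 28.8 and 28.4 with DMSO (log2 fold change -2.37, SE 0.14, limma adjusted p = 2.69e-06). SPC24 had 6.63 and 5.10 FPKM with GSK343 and 20.1 and 23.7 with DMSO (log2 fold change -1.74, SE 0.11, limma adjusted p = 4.86e-06). SPC25 had 4.30 and 2.47 FPKM with GSK343 and 26.02 and 20.6 with DMSO (log2 fold change -2.50, SE 0.19, limma adjusted p = 1.17e-05). No treated library of any subunit reached its DMSO libraries. SPC24 per NDC80 was 1.16 and 1.30 with GSK343 and 0.952 and 1.15 with DMSO, and 1.66 and 1.70 in RL, all above the ratios in KARPAS-422. With DMSO alone, SPC24 had 43.3 and 42.2 FPKM in RL and averaged 4.37 ± 0.0948 in KARPAS-422 (SD, n = 3), where it was the least abundant member.

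**Figure D2:**
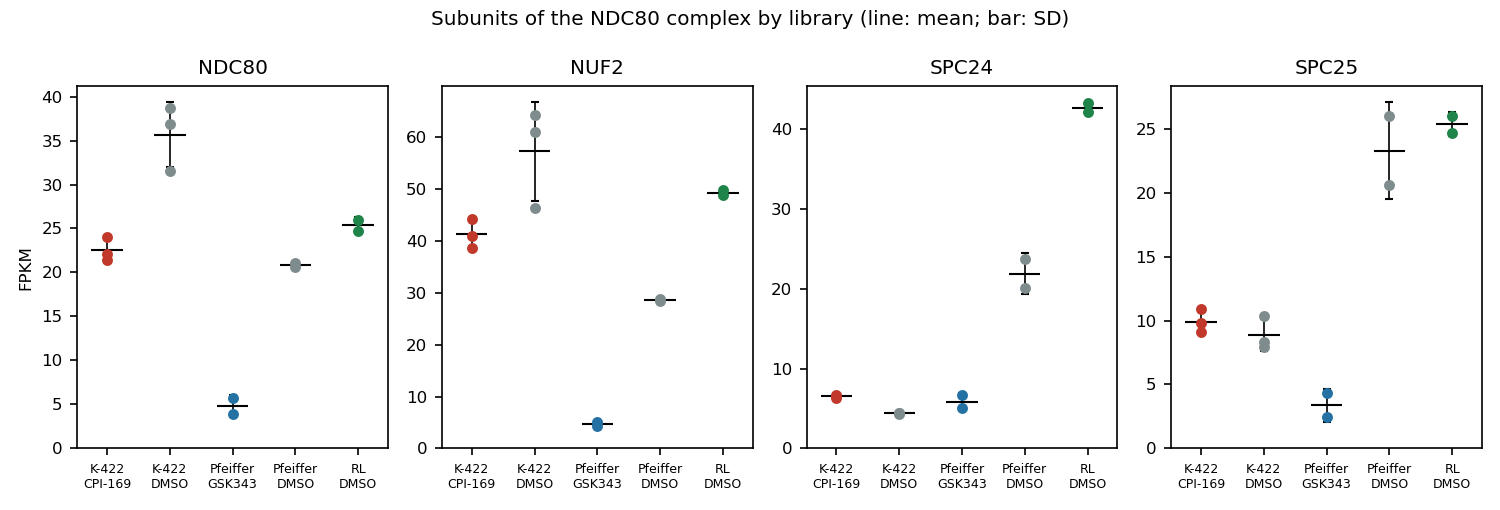
FPKM of the 4 NDC80 complex subunits, 1 point per library, with the mean as a line and the SD as a bar (n = 3 in KARPAS-422 groups, n = 2 in the others). With CPI-169 the points of NDC80 and NUF2 lie below those of DMSO, the SPC24 points at 6.26 to 6.73 lie above 4.27 to 4.46, and with GSK343 all 4 lie below DMSO.

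All 6 spindle microtubule proteins fell with both compounds. TPX2 (chr20:30327073-30389608), which activates AURKA and nucleates microtubules, had 22, 23.3 and 22.5 FPKM with CPI-169 and 39.1, 40.2 and 40.4 with DMSO (log2 fold change -0.80, SE 0.07, limma adjusted p = 3.83e-06). Its values were 12.7 and 10.99 FPKM with GSK343 and 39.2 and 42.3 with DMSO (log2 fold change -1.71, SE 0.08, limma adjusted p = 8.89e-07). ASPM (chr1:197053257-197115824), a spindle pole protein mutated in microcephaly, had 10.9, 11.7 and 11.04 FPKM with CPI-169 and 23.03, 21.6 and 20.5 with DMSO (log2 fold change -0.89, SE 0.07, limma adjusted p = 3.4e-06). In the other line it had 2.97 and 2.46 with GSK343 and 12.9 and 12.6 with DMSO (log2 fold change -1.89, SE 0.09, limma adjusted p = 8.89e-07). Both genes had tight replicates and no overlap. HMMR and DLGAP5 fell further than these with CPI-169, to 44.2% and 43.1% of their DMSO means, and stood at 27.2% and 25.2% with GSK343. PRC1, which bundles the central spindle, and NUSAP1 kept 56.9% and 65.6% with CPI-169 and 29.7% and 23.3% with GSK343.

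The cytokinesis genes ECT2, an activator of RhoA, and ANLN, a scaffold of the contractile ring, fell with both compounds. ANLN (chr7:36429414-36493400) had 6.80, 6.28 and 5.70 FPKM with CPI-169 and 11.8, 11.1 and 11.5 with DMSO (log2 fold change -0.78, SE 0.07, limma adjusted p = 8.9e-06). It had 2.06 and 2.002 FPKM with GSK343 and 12.1 and 11.4 with DMSO (log2 fold change -2.07, SE 0.09, limma adjusted p = 6.96e-07). ECT2 kept 54.7% of its DMSO mean with CPI-169 and 35.4% with GSK343. All 6 genes of chromosome structure fell as well. SMC4 (chr3:160117061-160152750), a condensin core subunit, had 45.8, 49.2 and 48.3 FPKM with CPI-169 and 84.1, 82.5 and 84.8 with DMSO (log2 fold change -0.80, SE 0.07, limma adjusted p = 7.58e-06), and 31.8 and 26.4 with GSK343 against 73.1 and 75.02 with DMSO (log2 fold change -1.33, SE 0.09, limma adjusted p = 5.93e-06). Its partner SMC2 kept more, 72.4% with CPI-169 and 43.6% with GSK343, and the condensin I subunits NCAPG and NCAPH kept 55.2% and 67.9% with CPI-169 and 18.6% and 27.4% with GSK343. TOP2A, the decatenating topoisomerase, averaged 53.1 ± 1.43 FPKM with CPI-169 and 76.2 ± 3.55 with DMSO (SD, n = 3 each), and had 47.4 and 25.6 with GSK343 and 122 and 114 with DMSO. MKI67, the Ki-67 antigen gene, averaged 18.1 ± 1.72 FPKM with CPI-169 and 24.1 ± 3.59 with DMSO in KARPAS-422 (SD, n = 3 each) and had 8.84 and 6.07 with GSK343 and 30.7 and 34.1 with DMSO, and passed in both lines (limma adjusted p = 0.0279 and 1.64e-05). The CPI-169 call of MKI67 was lost with no filter, under quantile normalization, and without CPI-169 replicate 1, CPI-169 replicate 3 or DMSO replicate 1.

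FOXM1 (chr12:2966846-2986206), a transcription factor that acts on many of these genes in G2 phase, had 15.2, 16.8 and 14.5 FPKM with CPI-169 and 19.5, 18.4 and 16.7 with DMSO, which overlap and did not pass (log2 fold change -0.22, SE 0.09, limma adjusted p = 0.0705). It had 3.75 and 3.496 FPKM with GSK343 and 10.9 and 13.5 with DMSO (log2 fold change -1.50, SE 0.11, limma adjusted p = 1.01e-05). A call of FOXM1 as lower with CPI-169 was gained in 5 of the 19 alternative settings. Over all alternatives its limma adjusted p with CPI-169 was 0.0414 to 0.364. RHNO1, which overlaps 4.05% of the FOXM1 locus, averaged 13.1 FPKM with CPI-169 and 26.0 with DMSO, and 15.2 with GSK343 and 24.1 with DMSO, and its part was not tested. PBK, a mitotic kinase gene, had 5.56 and 4.34 FPKM with GSK343 and 49.1 and 41.7 with DMSO (log2 fold change -2.97, SE 0.15, limma adjusted p = 9.15e-07), the largest relative fall of the 54. With CPI-169 it had 19.3, 15.8 and 17.1 FPKM, against 25.2, 30.4 and 32.6 with DMSO (log2 fold change -0.72, SE 0.12, limma adjusted p = 0.000443). ESCO2 overlaps 10.6% of the PBK locus and averaged 6.17 FPKM with CPI-169 and 16.7 with DMSO, and 1.77 with GSK343 and 6.83 with DMSO. Of the 54 members, 17 overlap another gene with a mean of at least 1 FPKM, and reads of such pairs cannot be told apart without the strand, whose handling is not given in the sources used here.

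The fall with GSK343 in Pfeiffer was larger than that with CPI-169 in KARPAS-422 for all 54 members, except for CDCA8 under both other scalings and KIF18A under median scaling, and the test of this difference passed for 49 (limma, 0 in the other direction), where 23.8% of all genes passed in that direction and 18.8% in the other. The median difference, GSK343 effect minus CPI-169 effect, was -0.995 on the log2 scale, beside -0.07 over all genes. It was largest for SPC25 (-2.65, SE 0.25), PBK (-2.25, SE 0.19), SPC24 (-2.23, SE 0.15) and NUF2 (-1.92, SE 0.18). The 5 members without a call were CDCA8 (-0.02, SE 0.11), KIF18A (-0.05, SE 0.19), KIF15 (-0.30, SE 0.14), TTK (-0.34, SE 0.23) and CENPE (-0.52, SE 0.21), with limma adjusted p of 0.893, 0.866, 0.0962, 0.26 and 0.0636. Members lower with both compounds numbered 47 (87%), against 7.02% of all genes, and each comparison has DMSO libraries of its own. Across the 54 members the log2 fold changes of both lines were hardly related, with Pearson's r of 0.14 and Spearman's rho of 0.01 as a description over genes that share the same libraries.

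**Figure D3:**
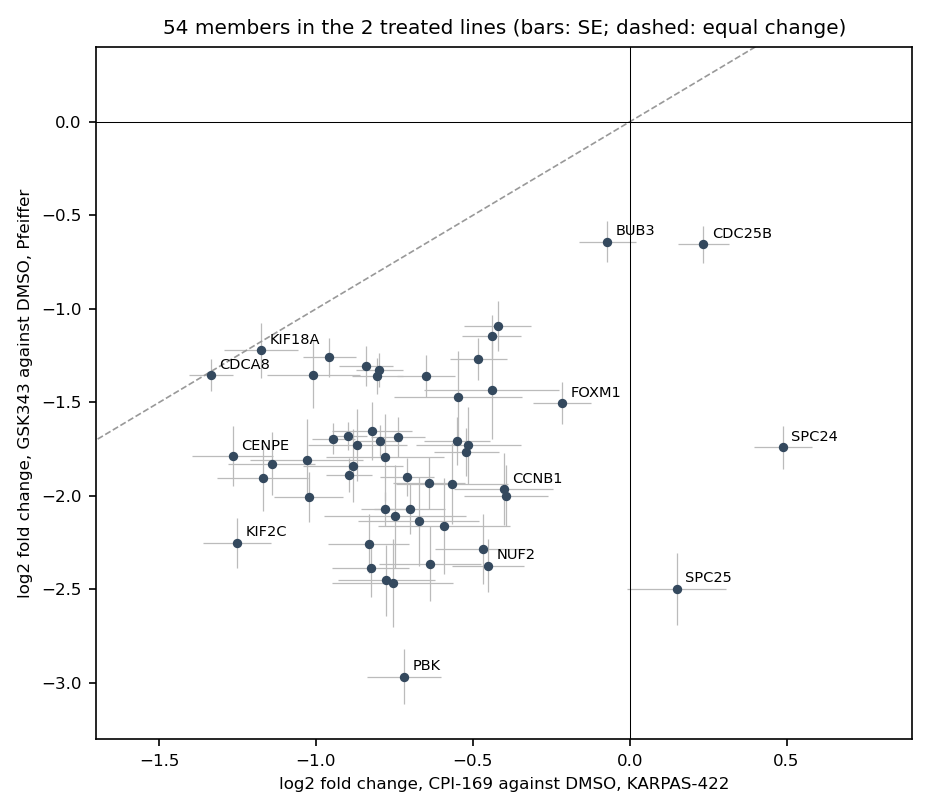
Each point is 1 of the 54 members, with its log2 fold change for CPI-169 against DMSO on the x axis and for GSK343 against DMSO on the y axis, bars showing SE and the dashed line equal change. All points lie below the dashed line, CDCA8 and KIF18A so close that another scaling puts them above it, and SPC24, SPC25 and CDC25B lie right of 0 on the x axis.

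Without EZH2 inhibitor, RL had the highest mean of the 3 lines for 38 of the 54 members, KARPAS-422 for 10 and Pfeiffer for 6. Against KARPAS-422, 43 members were higher in RL and 7 lower, where 33.6% and 33.2% of all genes were, and the member median was 0.77 beside 0.00 over all genes. Against Pfeiffer, 32 were higher and 2 lower, where 35.6% and 38.7% of all genes were, and the median was 0.51 beside -0.03. Both RL libraries were above every DMSO library of the other lines for 36 members, against 22.2% of all genes. The members took 0.739% and 0.740% of the FPKM sum in RL. Line and seeding density cannot be told apart here.

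The members with the highest values in RL relative to KARPAS-422 were SPC24 (log2 fold change 3.03), BUB1B and PLK1. BUB1B had 83.9 and 86.9 FPKM in RL and 17.4, 19.3 and 20.1 in KARPAS-422 (log2 fold change 2.12, SE 0.23, limma adjusted p = 9.35e-06), and PLK1 had 113 and 111 in RL and 27.96, 28.7 and 26.1 in KARPAS-422 (log2 fold change 1.98, SE 0.10, limma adjusted p = 1.57e-08). Against Pfeiffer, at 74.8 and 92.97 FPKM, PLK1 was also higher in RL (limma adjusted p = 0.00383), while BUB1B, at 68.2 and 63.8, did not pass (limma adjusted p = 0.206). Relative to Pfeiffer, the log2 fold changes of RL were highest for FOXM1, ESPL1 and CDCA8. FOXM1 had 67.7 and 67.5 FPKM in RL, 19.5, 18.4 and 16.7 in KARPAS-422 and 10.9 and 13.5 in Pfeiffer (against Pfeiffer, log2 fold change 2.39, SE 0.11, limma adjusted p = 1.16e-08), so RL lay far above both other lines. ESPL1 had 32.7 and 34.2 FPKM in RL and 6.06 and 5.5 in Pfeiffer (log2 fold change 2.35, SE 0.11, limma adjusted p = 1.23e-08), and CDCA8 had 92.02 and 91.1 in RL and 21.2 and 24.03 in Pfeiffer (log2 fold change 1.97, SE 0.09, limma adjusted p = 5.98e-09).

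A few members ran the other way. CENPE had 6.49 and 7.53 FPKM in RL, 24.9, 25.9 and 24.6 in KARPAS-422 and 19.4 and 16.6 in Pfeiffer, and was lower in RL than in both (log2 fold change -1.71, SE 0.15, limma adjusted p = 1.44e-06 against KARPAS-422, and log2 fold change -1.25, SE 0.16, limma adjusted p = 3.31e-05 against Pfeiffer). It was the least abundant member in RL. KIF15 had 10.4 and 10.1 FPKM in RL, against 15.3, 17.04 and 17.8 in KARPAS-422 and 15.96 and 14.1 in Pfeiffer, and was also lower than in both lines (limma adjusted p = 0.000105 and 0.00117). PLK4 had 25.3 and 24.8 FPKM in RL and 48.1, 46.6 and 47.99 in KARPAS-422 (log2 fold change -0.90, SE 0.08, limma adjusted p = 1.38e-06), but in Pfeiffer, at 23.01 and 21.5, it did not pass the test (limma adjusted p = 0.0938). NDC80, TTK, HMMR and KIF18A were also lower in RL than in KARPAS-422. The count of 7 lower members was 4 without KARPAS-422 DMSO replicate 2 or 3 or RL replicate 1, and 3 without RL replicate 2, and the count of 2 against Pfeiffer was 6 without GSK343 replicate 1 or 2.

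**Figure D4:**
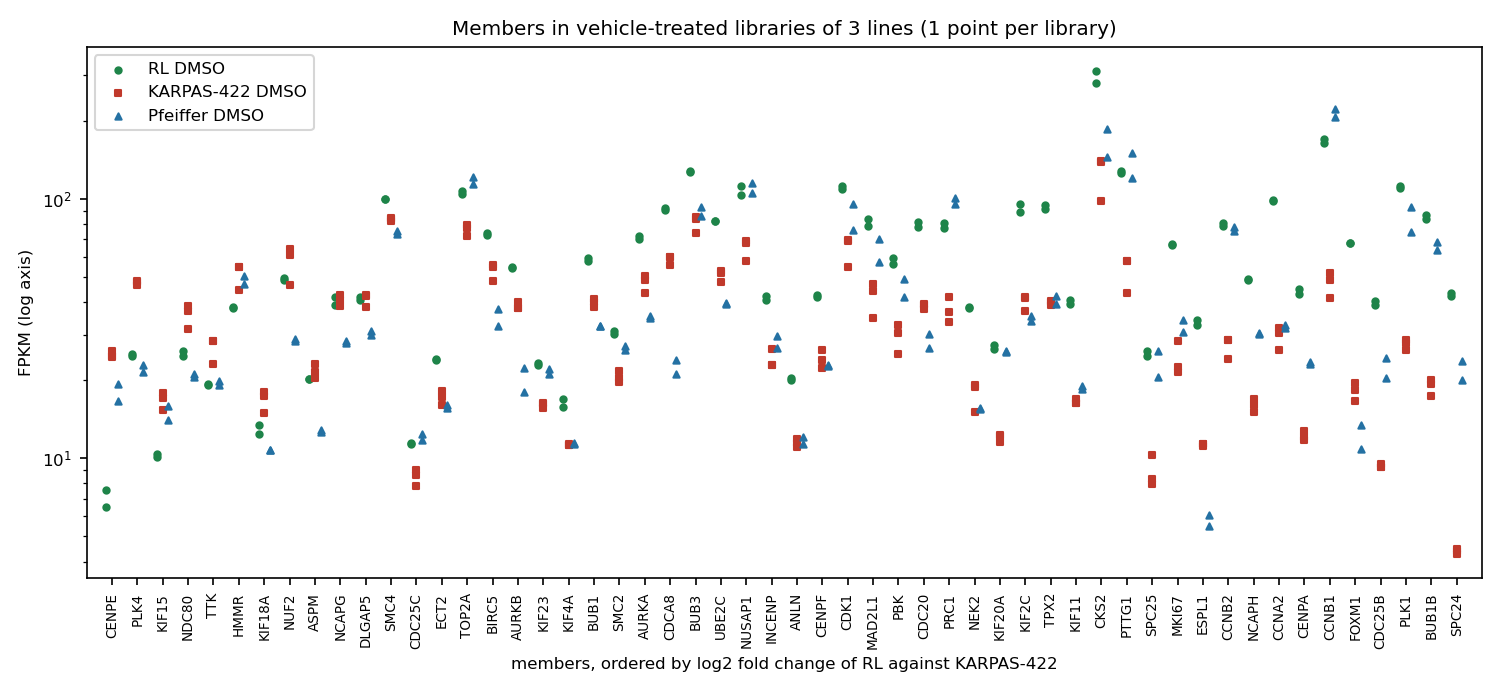
FPKM on a log axis of the 54 members in the DMSO libraries, 1 point per library, ordered by the log2 fold change of RL against KARPAS-422. RL points lie above both other lines for 36 members, and at the left end the RL points of CENPE and KIF15 lie below those of both other lines.

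Of the members, 20 members were lower and 16 higher in KARPAS-422 than in Pfeiffer, where 43.2% and 39.8% of all genes were (83% in either direction), with a median of -0.03 beside -0.06 over all genes. CCNB1 differed most, with 41.5, 51.9 and 48.6 FPKM in KARPAS-422 and 222 and 208 in Pfeiffer (log2 fold change -2.17, SE 0.18, limma adjusted p = 5.13e-07), while RL had 170.0 and 165. SPC24 (log2 fold change -2.09) and BUB1B (-1.75) were also lower in KARPAS-422. CDCA8 was higher in KARPAS-422 (1.33), as were PLK4 (1.06) and NUF2, with 46.5, 64.3 and 61.1 FPKM in KARPAS-422 and 28.8 and 28.4 in Pfeiffer (log2 fold change 0.97, SE 0.13, limma adjusted p = 3.19e-05). Cyclin B1 per CDK1, in FPKM, was 0.851 to 0.888 with CPI-169 and 0.702 to 0.761 with DMSO in KARPAS-422, and 3.52 and 3.39 with GSK343 and 2.32 and 2.74 with DMSO in Pfeiffer, so it was higher in each treated library than in the DMSO libraries of its line.

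Other genes of the pathway were read in lists drawn up by function, to be set beside all tested genes, of which 27.3% fell and 26.9% rose with CPI-169 and 17.5% fell and 12% rose with GSK343. Of 67 other mitotic genes, 45 fell and 8 rose with CPI-169 (median -0.50), and 60 fell and 0 rose with GSK343 (median -1.20). KIF20B had 4.22, 4.31 and 4.22 FPKM with CPI-169 and 12.97, 12.7 and 13.7 with DMSO (log2 fold change -1.43, SE 0.08, limma adjusted p = 3.08e-07), and 5.51 and 4.34 with GSK343 against 13.7 and 13.2 with DMSO. Of 16 genes of the anaphase-promoting complex and its enzymes, 7 fell and 4 rose with CPI-169 (median -0.26), and 7 fell and 1 rose with GSK343 (median -0.34); the 4 and the 1 that rose are no larger shares than those of all genes. ANAPC5 was higher with CPI-169, at 109.6, 103 and 106 FPKM against 45.5, 53.3 and 53.2 with DMSO (log2 fold change 1.06, SE 0.08, limma adjusted p = 1.69e-06), and the chain-extending enzyme gene UBE2S was lower with GSK343, at 6.70 and 4.88 against 20.2 and 20.2 with DMSO (log2 fold change -1.66, SE 0.25, limma adjusted p = 0.000862). Of 13 cohesin genes, 9 fell with CPI-169 and 7 with GSK343, and none rose (medians -0.52 and -0.38). ESCO2, the acetyltransferase of cohesin, showed the lowest CPI-169 fold change of these (log2 fold change -1.30, SE 0.08, limma adjusted p = 5.02e-07).

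Of 18 tubulin genes and partners of gamma-tubulin, 10 rose and 4 fell with CPI-169 (median 0.38), whereas 13 fell and 0 rose with GSK343 (median -0.73). TUBB, a beta-tubulin with near-identical relatives, had 119.9, 121 and 117 FPKM with CPI-169 and 52.6, 52.6 and 50.5 with DMSO (log2 fold change 1.19, SE 0.08, limma adjusted p = 7.76e-07), and 255 and 217 with GSK343 against 477 and 487 with DMSO (log2 fold change -1.03, SE 0.10, limma adjusted p = 3.75e-05). DNA replication genes, which are mostly made ahead of S phase, were read as another part of the cell cycle program. Of 46, 15 fell and 13 rose with CPI-169 (median -0.08), and 43 fell and 0 rose with GSK343 (median -1.46). The licensing factor gene CDT1 had 15.6, 20.1 and 15.6 FPKM with CPI-169 and 5.33, 6.55 and 6.18 with DMSO (log2 fold change 1.36, SE 0.13, limma adjusted p = 7.03e-06), and 7.47 and 6.001 with GSK343 against 30.5 and 38.2 with DMSO (log2 fold change -2.19, SE 0.15, limma adjusted p = 6.59e-06). MCM2, a helicase subunit, had 26, 24.3 and 25.2 FPKM with CPI-169 and 34.1, 35.1 and 33.9 with DMSO (log2 fold change -0.43, SE 0.07, limma adjusted p = 0.000225), and 22.9 and 24.7 with GSK343 against 64.2 and 71.4 with DMSO (log2 fold change -1.47, SE 0.08, limma adjusted p = 1.78e-06). With CPI-169 both shares of the replication genes were near those of all tested genes (27.3% lower and 26.9% higher), while with GSK343 17.5% of all genes were lower. The difference between these counts and those of the spindle genes was not tested.

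**Figure D5:**
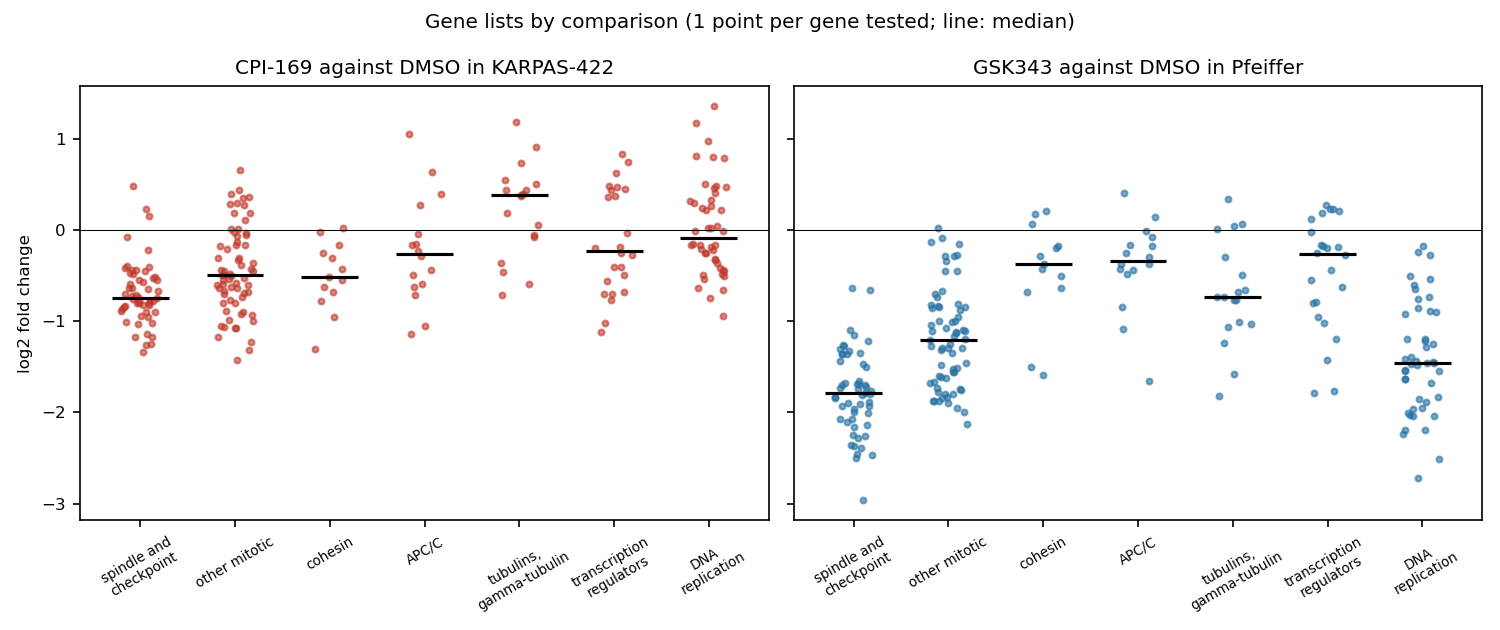
Log2 fold changes of the members and of the other lists, 1 point per gene tested, with the median as a line. The medians with CPI-169 and with GSK343 are -0.74 and -1.79 for the members, 0.38 and -0.73 for tubulins, and -0.08 and -1.46 for DNA replication genes.

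Of 24 regulators of mitotic genes, 10 fell and 8 rose with CPI-169, and 12 fell and 0 rose with GSK343 (medians -0.23 and -0.26), where 27.3% and 26.9% of all genes did with CPI-169 and 17.5% and 12% with GSK343. Of the regulators that rose with CPI-169 only E2F8 is named here, so the genes given do not mirror these counts. The MuvB subunit genes LIN54 and LIN9 fell with both compounds. LIN54 had 2.82, 2.88 and 3.22 FPKM with CPI-169 and 7.18, 6.97 and 7.08 with DMSO (log2 fold change -1.02, SE 0.09, limma adjusted p = 5.61e-06), and 2.82 and 3.78 with GSK343 against 5.55 and 5.61 with DMSO (log2 fold change -0.62, SE 0.11, limma adjusted p = 0.00225). RB1 had 32.3, 34.5 and 34.7 FPKM with CPI-169 and 76.5, 74.6 and 71.99 with DMSO (log2 fold change -1.12, SE 0.06, limma adjusted p = 2.53e-07), but 49.8 and 53.4 with GSK343 and 43.3 and 45.6 with DMSO, which did not pass (log2 fold change 0.21, SE 0.08, limma adjusted p = 0.0604). E2F1 fell with both compounds, with 21.1, 19.9 and 21.3 FPKM with CPI-169 and 30.5, 31.9 and 31.03 with DMSO, and 4.61 and 3.98 with GSK343 against 17.2 and 17.5 with DMSO (limma adjusted p = 4.3e-05 and 6.96e-07). E2F8, a repressor of the family, rose with CPI-169 and fell with GSK343, with 6.78, 7.39 and 7.06 FPKM with CPI-169 against 5.25, 5.76 and 4.67 with DMSO, and 1.43 and 1.25 with GSK343 against 6.85 and 7.08 with DMSO (limma adjusted p = 0.0026 and 2.13e-06). MYBL2, encoding B-MYB, had 23.5, 23.9 and 22.9 FPKM with CPI-169 and 25.9, 24.1 and 22.1 with DMSO and did not pass (log2 fold change -0.03, SE 0.11, limma adjusted p = 0.857), whereas it fell to 29.3 and 39.7 FPKM with GSK343, against 73.1 and 86.7 with DMSO (log2 fold change -1.20, SE 0.14, limma adjusted p = 0.000127). CDKN1A, the p21 gene, had 21.1 and 3.18 FPKM in GSK343 replicates 1 and 2 and 10.1 and 9.97 with DMSO, so the replicates lay on either side of the DMSO libraries. With CPI-169 the values of CDKN1A were 13.3, 12.1 and 12.4 FPKM, against 7.80, 8.18 and 7.53 with DMSO, without overlap but not past the threshold (log2 fold change 0.62, SE 0.43, limma adjusted p = 0.26), the spread being shared with the GSK343 pair.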

How the data were processed

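RNA sequencing measured 12 libraries of 3 lines. Reads were handled with TopHat 1.4.1, hg19 and Cufflinks, per the submitters' processing notes, and the authors deposited 1 table of FPKM values per gene and library. The sources used here give no Cufflinks version, annotation release or strand setting. Counts and absolute depth are unknown, so no counting interval is given. Steps between the lowest FPKM values put the relative depth of libraries at 0.646 to 1 within KARPAS-422, 1 to 1.33 within Pfeiffer and 0.774 to 1 within RL. Groups came from the labels, which do not say whether replicates were separate cultures: p-values then rest on the spread between libraries alone, which may be technical.

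Values were tested as log2(FPKM + 1), a scale that understates changes of low genes, with limma 3.58.1 in R 4.3.3 (trend, 5 groups, 7 residual and 3.45 prior degrees of freedom, two-sided), over the 18731 of 63129 genes that reached 1 FPKM in 2 or more libraries. Genes with a missing value (77) were left out. Adjusted p-values are Benjamini-Hochberg over all genes tested, with a threshold of 0.05. The procedure was tested on simulated data. Fold changes are treated over DMSO, RL over the other line, and KARPAS-422 over Pfeiffer, on this scale.

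The members, the lists and the rules were chosen with earlier results of these data known. Members given by library were, in each of 11 role groups, the one with the smallest adjusted p per compound, every member called higher with a compound or called with neither, the 5 whose difference between the lines had the smallest adjusted p, and the 3 highest and 3 lowest log2 fold changes of each comparison; NDC80, TOP2A, MKI67, CKS2, the ratios and the members given as a share of DMSO were added after their values were seen. From each other list the rule takes the 3 genes with the smallest adjusted p per compound and, of the regulators, all that were called; some of these are given. The 19 alternative settings covered the pseudocount, the filter, the scaling, the libraries in the fit, a replicate block and leaving out each library. Promoter windows were matched by symbol to RefSeq GRCh38.p14, and measured loci are those of the FPKM table.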

Additional observations from a re-analysis of the deposited data

Results flagged for a closer look

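The test of the difference between the 2 treated lines, GSK343 effect in Pfeiffer minus CPI-169 effect in KARPAS-422, passed for 49 of the 54 members, all lower (limma, adjusted p under 0.05). The 5 with the smallest adjusted p, and CDC25B, added because its calls go opposite ways in the lines, were SPC25 (log2 difference -2.65), PBK (-2.25), SPC24 (-2.23), NUF2 (-1.92), ANLN (-1.29) and CDC25B (-0.89). SPC24 and CDC25B were higher with CPI-169 and lower with GSK343, SPC25 did not pass with CPI-169, and PBK, NUF2 and ANLN were lower with both and further with GSK343. Line and compound cannot be told apart in these differences, since each compound was used in 1 line.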

How the results depend on the processing

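Across the 19 alternative settings, the 47 members lower with CPI-169 were 40 at the fewest, with no filter, where AURKB, BUB1B, CCNB2, KIF23, NUSAP1, TOP2A and MKI67 lost their calls, and the 49 lower for the difference were 40 at the fewest, under quantile normalization. The 54 lower with GSK343 became 0 with each line fitted alone, where all 54 log2 fold changes stayed negative. The 2 members higher with CPI-169 became 1 under median scaling and with the replicate block. The 7 members lower in RL than in KARPAS-422 became 4 with no filter and 4 under median scaling. The member median of KARPAS-422 against Pfeiffer turned to 0.008 under quantile normalization, which moved the median of all genes to 0.126 for RL against Pfeiffer and 0.102 for KARPAS-422 against Pfeiffer. Leaving out 1 library gave 41 to 49 lower and 1 to 2 higher with CPI-169 (median -0.80 to -0.69), 54 lower with GSK343 (median -2.08 to -1.55), and 41 to 51 lower for the difference (median -1.28 to -0.78). It gave 3 to 8 lower and 35 to 43 higher in RL than in KARPAS-422, 2 to 6 lower and 28 to 39 higher in RL than in Pfeiffer, and 16 to 23 lower and 12 to 20 higher in KARPAS-422 than in Pfeiffer. The difference of CDCA8 turned positive under quantile normalization (0.115), under median scaling (0.087), and without KARPAS-422 DMSO replicate 1 (0.013), Pfeiffer DMSO replicate 2 (0.064) or GSK343 replicate 2 (0.057), within a range of -0.107 to 0.064 over the fits without 1 library. That of KIF18A did so under median scaling (0.063), without KARPAS-422 DMSO replicate 1 (0.030) and without GSK343 replicate 2 (0.199), within a range of -0.290 to 0.199, and CCNB1 in RL against Pfeiffer under quantile normalization (0.015). The causes were not tested. Over all named genes and settings, 1886 of 1977 values kept direction and side of the threshold. With the replicate block, 48 were lower and 1 higher with CPI-169, 54 lower with GSK343, and 50 lower for the difference. Same-numbered libraries of KARPAS-422 had deviations correlated at -0.15, -0.25 and 0.16, and the Pfeiffer pairs at 0.14. With 2 libraries per Pfeiffer group the deviations mirror each other, so both Pfeiffer pairs hold the same value. The labels do not say whether same-numbered libraries share a culture or batch, and these correlations cannot decide it. Depth is unknown, which limits what can be said of low genes.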
